A study of Mus musculus with 20 samples.

Results

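The interferon-stimulated genes followed here were 41 mouse genes chosen by name, with no threshold on their values. Rows of the deposited abundance table that carried 1 of these gene symbols were summed per symbol. All 41 symbols were found among the 35240 in the table. Each had a mean of at least 1 over the libraries, so none was set aside, and all 41 were among the 13539 genes tested. The values are abundances per transcript length, normalised by the authors to a size factor per library, and are called normalised abundance below.

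The RNA came from colonoid cultures, which are epithelial structures grown from colonic crypts in a gel matrix. Crypts were taken from the distal colon of young adult mice, either wild type (WT, C57BL/6) or Tnfr2-/-, with a whole-body disruption of the gene for TNF receptor 2 (Tnfrsf1b). After several passages the cultures were seeded again and collected without treatment on each of the first 3 days post-passage (DPP) and again at 5 and 7 DPP. There were 20 libraries in 10 groups of genotype and day, and each group held 2 libraries, numbered replicate 1 and replicate 2. Days 1 to 3 are called early and days 5 and 7 late. The 5 libraries of a genotype with the same replicate number are called a replicate series. Their labels share a code (M1 or M2) whose meaning is not spelled out. Whether a series came from 1 animal is not stated, so p-values over libraries measure the spread between libraries, which may not be that between animals.

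Interferons are secreted proteins that bind receptors at the cell surface, activate JAK kinases and STAT proteins and switch on a large set of genes. Type I and type III interferons act through a complex that holds STAT2 and IRF9 and binds an interferon-stimulated response element (ISRE), while type II interferon acts through a gamma-activated site (GAS). The products sense viral RNA, degrade it, block its translation or modify proteins, and IRF7 among them raises the production of interferon itself. In the gut epithelium, type III interferon is a main inducer of these genes, and a low level of their RNA is present without infection.

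Promoter sequence was used to show what the members share apart from their RNA levels. RefSeq promoter windows (build GRCm38.p6, from 250 bases before to 50 after the start site) were at hand for 31 of the 41 members. The ISRE core, written GAAANNGAA and searched on both strands, was present in 20 of the 31 members (64.5%) and in 9.76% of all 27025 genes with a window. The GAS core, TTCNNNGAA, was present in 8 of the 31 members (25.8%) and in 9.55% of all genes. The GAS and ISRE matches of Bst2 shared bases. The 8 stretches below are those of the members with the largest late rise in WT among members that rose in both genotypes and held an ISRE core wholly before the start site. Each is given in the direction of the gene, with the ISRE cores, on either strand, in capitals.
Ifit1, chr19:34640755-34640838, plus strand: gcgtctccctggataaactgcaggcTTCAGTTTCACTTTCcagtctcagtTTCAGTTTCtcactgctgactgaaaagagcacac
Isg15, chr4:156200851-156200921, minus strand: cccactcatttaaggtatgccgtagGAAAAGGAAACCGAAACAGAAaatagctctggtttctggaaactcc
Oas1a, chr5:120907526-120907570, minus strand: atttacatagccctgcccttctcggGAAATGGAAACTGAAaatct
Igtp, chr11:58199497-58199555, plus strand: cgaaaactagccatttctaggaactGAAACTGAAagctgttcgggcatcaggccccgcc
Bst2, chr8:71537563-71537627, minus strand: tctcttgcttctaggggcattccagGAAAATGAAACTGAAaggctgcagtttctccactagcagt
Stat2, chr10:128270252-128270310, plus strand: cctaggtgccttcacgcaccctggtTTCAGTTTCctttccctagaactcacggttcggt
Gbp7, chr3:142530259-142530317, plus strand: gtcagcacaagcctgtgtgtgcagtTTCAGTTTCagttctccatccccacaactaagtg
Irgm1, chr11:48871421-48871475, minus strand: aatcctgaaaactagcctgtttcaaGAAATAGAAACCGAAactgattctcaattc

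In Isg15 and Ifit1 the core occurred 3 times, in overlapping or closely spaced copies, and in Oas1a, Bst2 and Irgm1 there were 2 overlapping copies. A match is a run of letters and was not tested as a binding site.

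**Figure D1:**
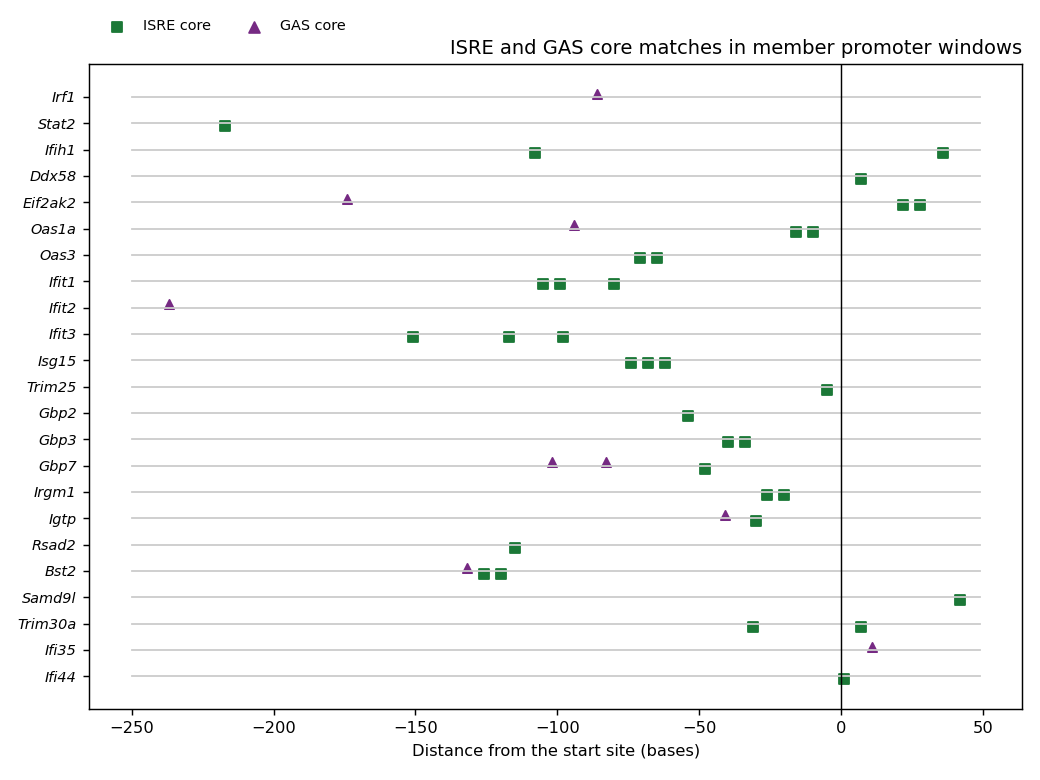
Positions of ISRE cores (green squares) and GAS cores (purple triangles) in the promoter windows of the members that held either, in bases from the start site (vertical line at 0). Grey lines span the window, and the ISRE cores of Isg15, Ifit1, Oas1a, Bst2 and Irgm1 form close runs before the start site.

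The members ranged widely in level. The 6 with the highest mean over the 20 libraries were Bst2 (120 ± 53.8, SD, n = 20), Ifi27 (90.2 ± 27.3), Irf7 (49.03 ± 44.6), Trim25 (47.0 ± 15.4), Rtp4 (42.2 ± 32.2) and Oas1a (40.1 ± 24.5). At the other end, Gbp7, Mx2 and Mx1 averaged 2.07, 2.20 and 2.87. Mx2 is annotated as a polymorphic pseudogene and was listed at 0 in 6 libraries. Summed over all members, the RNA made up between 0.0423% and 0.190% of a library, lowest in WT replicate 1 at 2 DPP and highest in the same series at 7 DPP.

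Because reads were assigned to transcripts by sequence, genes with near-identical copies are uncertain. Of the 31-base words in the main transcript, 68.8% were shared with another gene for Oas1a (mostly Oas1g) and 61.8% for Ifit3 (Ifit3b). Igtp shared 16.4% with Irgm2 and Dtx3l shared 10.1%, mostly with Parp9, which it overlaps head to head on chromosome 16. Whether strand was used in the quantification is not given in the sources used here. For Ifi47 and Irgm1 the table held more than 1 Ensembl identifier under the symbol. The sum over transcripts rested on 1 main transcript for Bst2 (99.1% of the sum) and Trim25 (91.0%), whereas the leading transcript held 28.5% for Ifi27 and 32.9% for Ifi47.

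The cultures expressed all 10 epithelial markers examined, with sums of 12641 to 20565 early and 16290 to 21227 late in WT, and of 15336 to 21520 and 14736 to 20616 in Tnfr2-/-. Of these markers 4 rose late in WT (Epcam, Cdh1, Vil1 and Cldn7), and in Tnfr2-/- 2 rose (Epcam and Cdh1) and 2 fell (Krt8 and Krt19). Fibroblast markers were also present, and their summed abundance was 2092 to 4296 early and 1242 to 4051 late in WT, and 3148 to 4697 early and 3728 to 8594 late in Tnfr2-/-. Leukocyte markers summed to at most 10.1, with Cd3g and Ncr1 listed at 0 in every library and Csf1r the only one with a mean of at least 1. Since these are bulk libraries, fewer cells of a type and less RNA per cell cannot be told apart. Tnfrsf1b itself was at 15.3 ± 3.09 in WT (n = 10) and 5.80 ± 2.84 in Tnfr2-/- (n = 10), and the libraries of the 2 genotypes ranged from 11.1 to 21.9 and from 2.71 to 11.5. The difference was -1.72 ± 0.16 early (adjusted p = 0.000116, limma) and -0.79 ± 0.20 late (adjusted p = 0.0323). It did not pass at 3, 5 or 7 DPP alone, and Tnfrsf1b rose late in Tnfr2-/- by 1.02 ± 0.18 (adjusted p = 0.00191). Whether these reads lie in the disrupted part of the gene was not tested.

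Most of the interferon-stimulated genes rose late after passage in both genotypes in the fit over all libraries. On 1 value per replicate series and phase none was called, as given below. In WT, 28 of the 41 members were higher late than early and none was lower, beside 11.6% of all genes tested that were higher (limma, adjusted p under 0.05). In Tnfr2-/-, 25 rose and none fell, beside 10.4% of all genes higher. The median late minus early difference of the 41 members was 1.04 on the log2(value + 1) scale in WT and 1.08 in Tnfr2-/-, against 0.02 and 0.02 for all genes. The members that passed in both genotypes numbered 22, which is 22 of the 28 in WT and 22 of the 25 in Tnfr2-/-. The late minus early difference was above 0 for 39 to 41 members in each replicate series, beside 51.4% to 51.9% of all genes. For 38 members it was above 0 in all 4 series, and the share of all genes that did so was not computed. Several members also belong to a list of time-dependent genes that the study chose on these same samples, so that list is not independent evidence of the direction. The study itself reports increased interferon signaling late in these WT cultures. The 41 members were chosen with earlier results of these data known, so their counts are not an independent finding. Epithelial and fibroblast markers also moved with time, as given above, and their part in these counts was not tested.

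**Figure D2:**
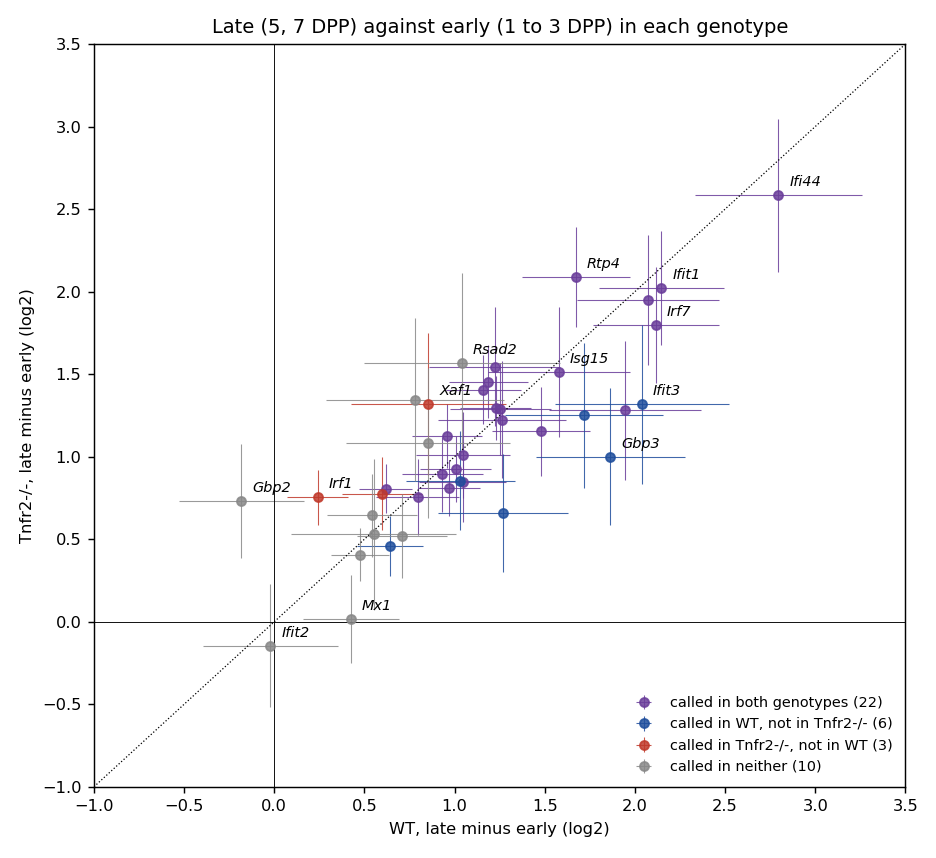
Late minus early difference (log2 scale) of each member in WT (x axis) and Tnfr2-/- (y axis), with standard errors as bars and the line of equal change dotted. Of the 41 members, 22 passed the test in both genotypes, and Ifi44 lies farthest from 0 on both axes.

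Among the transcription factors, Irf7, which drives interferon transcription, had early values in WT from 9.64 to 45.5 with a median of 15.9. Its late WT values were 54.9 and 178 in replicate 1 and 95.9 and 39.7 in replicate 2, the earlier day first here and below. In Tnfr2-/- the early values ran from 16.4 to 30.9 with a median of 24.7, and the late values were 125 and 55.2 in replicate 1 and 101 and 68.4 in replicate 2. Every late library of Tnfr2-/- was above every early one, while in WT the 7 DPP library of replicate 2 lay below the 3 DPP library of replicate 1. Irf7 rose by 2.12 ± 0.35 (log2, SE; adjusted p = 0.00143, limma) in WT and by 1.80 ± 0.35 in Tnfr2-/- (adjusted p = 0.00335). Irf9 and Stat2, which both belong to the ISRE-binding complex, rose by 0.97 ± 0.17 and 1.01 ± 0.20 in WT and by 0.81 ± 0.17 and 0.92 ± 0.20 in Tnfr2-/-. Irf1, a factor induced through GAS elements, passed in Tnfr2-/- (0.75 ± 0.17, adjusted p = 0.00743) with 0.24 in WT, but the difference between the genotypes was 0.51 ± 0.24 and did not pass (adjusted p = 0.428).

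Of the sensors of foreign nucleic acid, 3 rose in both genotypes. Zbp1, which binds Z-form nucleic acid, rose by 1.25 ± 0.28 in WT and 1.29 ± 0.28 in Tnfr2-/-. Dhx58 rose by 1.26 ± 0.36 and 1.22 ± 0.36, and Eif2ak2, the kinase that stops translation on double-stranded RNA, by 0.62 ± 0.15 and 0.81 ± 0.15. Ifih1 (MDA5) passed in WT and Ddx58 (RIG-I) in Tnfr2-/-. In all, 4 of the 5 sensors passed in each genotype, with medians of 1.03 and 0.85.

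All 5 oligoadenylate synthetase genes, whose products make the signal that activates RNase L or resemble those that do, passed in WT, and 3 of the 5 passed in Tnfr2-/-. Oasl2 was at 8.53 to 48.2 in early WT libraries (median 11.8), and late at 56.9 and 134 in replicate 1 and 63.3 and 36.2 in replicate 2. In Tnfr2-/- cultures it was at 11.3 to 16.4 early (median 13.8), and late at 84.6 and 39.8 in replicate 1 and 74.5 and 40.4 in replicate 2. The phases did not overlap in Tnfr2-/- and overlapped in WT through the 3 DPP library of replicate 1. The rise was 2.07 ± 0.39 in WT and 1.95 ± 0.39 in Tnfr2-/- (adjusted p = 0.00313 and 0.00415, limma).

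Oas2 was at 1.65 to 11.4 early in WT (median 5.21), and late at 18.3 and 45.4 in replicate 1 and 26.05 and 7.25 in replicate 2. In Tnfr2-/- it was at 3.87 to 11.6 early (median 6.83) and 26.1, 11.8, 21.9 and 13.3 late. It rose by 1.94 ± 0.42 in WT and 1.28 ± 0.42 in Tnfr2-/-. Oas1a, whose reads are shared with Oas1g, was at 12.03 to 42.9 early in WT (median 24.7) and late at 60.7, 107, 64.9 and 38.8. Tnfr2-/- values were 17.0 to 33.5 early (median 27.4) and 75.7, 39.0, 70.8 and 46.6 late. The late libraries of Oas1a lay above all early ones in Tnfr2-/-, and its rise was 1.48 ± 0.27 in WT and 1.15 ± 0.27 in Tnfr2-/-.

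The Ifit family binds viral RNA and blocks its translation. Ifit1 was at 1.10 to 17.0 early in WT (median 3.55) and late at 19.0 and 35.6 in replicate 1 and 24.6 and 10.5 in replicate 2. Tnfr2-/- libraries were at 2.06 to 7.62 early (median 3.37) and late at 30.0, 12.1, 28.4 and 11.5, with no overlap of the phases. Ifit1 rose by 2.15 ± 0.35 in WT and 2.02 ± 0.35 in Tnfr2-/- (adjusted p = 0.00118 and 0.00151, limma).

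Ifit3 was at 0.580 to 36.9 early in WT (median 4.51), and late at 19.5, 11.95, 48.9 and 18.8. In Tnfr2-/- it was at 2.75 to 16.9 early (median 6.13) and late at 29.9, 10.6, 32.2 and 7.37. Early and late libraries overlapped in both genotypes, and Ifit3 passed in WT (2.04 ± 0.48, adjusted p = 0.0103) with 1.32 ± 0.48 in Tnfr2-/- (adjusted p = 0.07). Ifit2 did not pass in either genotype, with -0.02 ± 0.37 in WT and -0.14 ± 0.37 in Tnfr2-/-, and lay between 1.24 and 10.7 over all libraries.

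Among the ubiquitin-like modifier and its partners, all 6 passed in WT and 5 of 6 in Tnfr2-/-. Isg15, the ubiquitin-like modifier itself, was at 8.04 to 74.4 early in WT and 31.3 to 97.3 late, and at 13.6 to 25.3 early in Tnfr2-/- and 23.9 to 96.0 late. It rose by 1.58 ± 0.39 in WT and 1.51 ± 0.39 in Tnfr2-/-. Usp18, which removes ISG15 and restrains the receptor, rose by 1.22 ± 0.36 and 1.55 ± 0.36. The ADP-ribosyltransferases Parp9 and Parp14 and the ligase Dtx3l rose by 1.16 to 1.23 in WT and by 1.29 to 1.45 in Tnfr2-/-. Trim25, a ligase that acts on RIG-I, was among the most abundant members, at 31.6 to 51.0 early in WT (median 39.8) and 69.4, 94.3, 54.6 and 40.2 late. In Tnfr2-/- it was at 32.7 to 46.9 early (median 37.5) and 66.0, 47.5, 55.9 and 44.1 late. Its rise was 0.64 ± 0.18 in WT (adjusted p = 0.0255, limma), and 0.46 ± 0.18 in Tnfr2-/-, where it did not pass.

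Of the 8 interferon-induced GTPases, 4 passed in WT (Gbp3, Gbp7, Irgm1 and Igtp) and 3 in Tnfr2-/- (Gbp7, Irgm1 and Igtp). Gbp3, a guanylate-binding protein, rose by 1.86 ± 0.41 in WT, with 1.00 ± 0.41 in Tnfr2-/-. The interaction for Gbp3 was -0.86 ± 0.59 (adjusted p = 0.595). Mx1, Mx2, Gbp2 and Ifi47 passed in neither genotype. For Gbp2 the values were -0.18 in WT and 0.73 in Tnfr2-/-.

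The other effectors included the member with the largest rise, Ifi44. It was listed at 0 in WT replicate 1 at 1 DPP, reached at most 8.46 in early WT libraries (median 3.996), and stood late at 19.0 and 47.6 in replicate 1 and 32.8 and 13.7 in replicate 2. In Tnfr2-/- it was at 2.43 to 14.3 early (median 4.02) and late at 54.3, 15.7, 53.6 and 25.8. Late exceeded early in every library of both genotypes, and the rise was 2.79 ± 0.46 in WT and 2.58 ± 0.46 in Tnfr2-/- (adjusted p = 0.00138 and 0.00196, limma). Rtp4, a receptor-transporting protein, was at 7.66 to 38.7 early in WT (median 22.5) and late at 54.2, 96.2, 76.7 and 37.8. The Tnfr2-/- libraries ran from 10.03 to 28.7 early (median 19.79) and late at 104, 58.3, 107 and 65.9. It rose by 1.67 ± 0.30 in WT and 2.09 ± 0.30 in Tnfr2-/-, the second-largest rise there.

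Bst2 (tetherin), which holds budding virus at the membrane, and Samd9l also rose in both genotypes, Bst2 by 1.05 ± 0.24 and 0.85 ± 0.24. Ifi27, second in level, was at 38.3 to 101 early in WT and 109, 123, 98.2 and 88.3 late, and at 63.8 to 108 early in Tnfr2-/- and 107, 103, 141 and 129 late. Its differences, 0.71 ± 0.25 and 0.52 ± 0.25, did not pass. Rsad2 (viperin), Cmpk2, Trim30a and Ifi35 passed in neither genotype, and Xaf1 passed in Tnfr2-/- (1.32 ± 0.43), a call lost in 15 of the 24 fits that left out a library or a series.

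**Figure D3:**
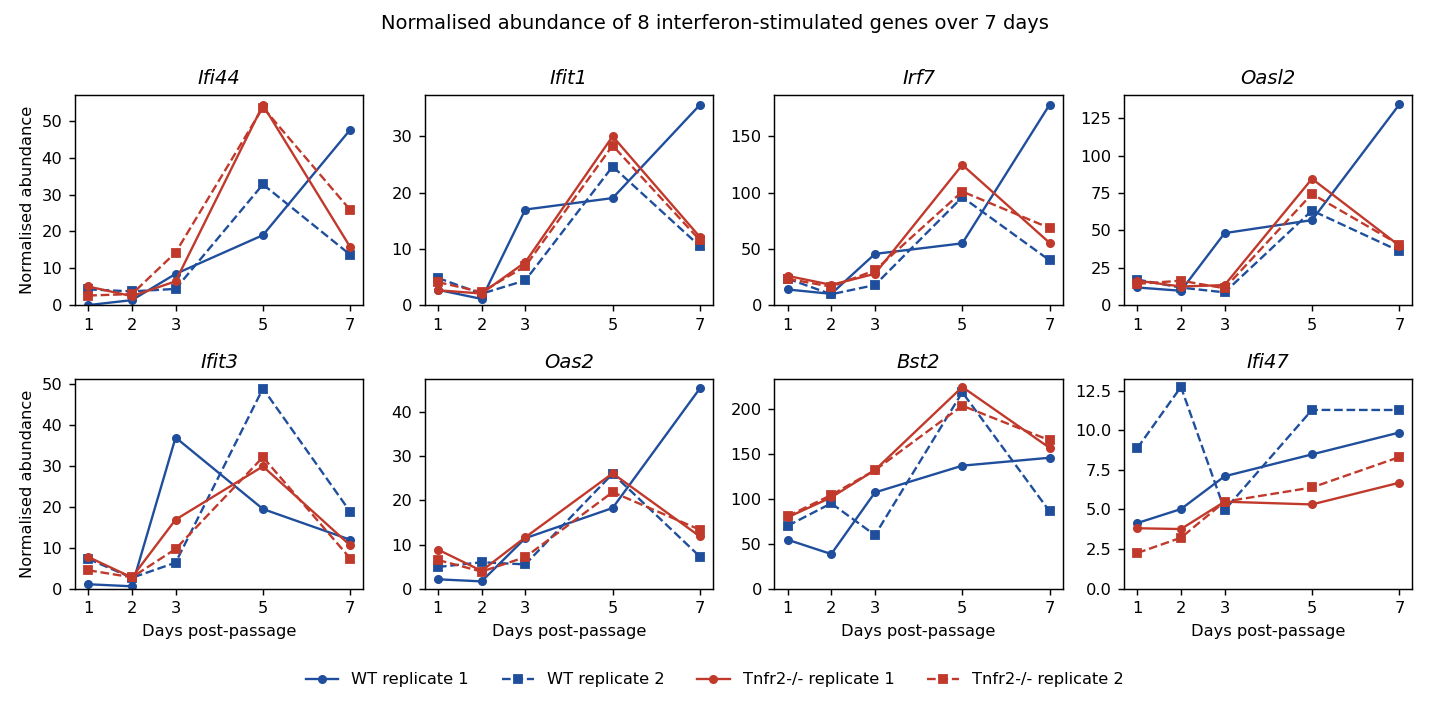
Normalised abundance of 8 members (y axis, each panel from 0) by days post-passage for each replicate series, blue for WT and red for Tnfr2-/-, solid for replicate 1 and dashed for replicate 2. In 3 of the series Ifi44, Ifit1, Irf7, Oasl2 and Oas2 are highest at 5 DPP, while in WT replicate 1 they are highest at 7 DPP.

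The 2 counts did not hold in every fit. With only the groups compared in the fit, the WT count was 12, and the number of all genes higher there is given with the pathway genes below. On 1 value per replicate series and phase, 0 of the 41 members were called in either genotype, as were 0 of all genes, with 34 members in each at an unadjusted p under 0.05 beside 4066 of all 13539 genes in WT and 3997 in Tnfr2-/-. Without Tnfr2-/- replicate 1 or replicate 2 the count in Tnfr2-/- was 0 and 0 (2 and 3 of all genes called), with the spread then estimated from WT cultures and the remaining series alone giving the Tnfr2-/- means, and the count in WT was 12 and 11, beside 611 of all genes higher in each fit. In WT the count was 17 without the 7 DPP library of replicate 1, 21 without replicate 1 and 30 without replicate 2 (29 of these 30 higher), beside 873, 699 and 1525 of all genes higher.

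The day of the highest value differed between replicate series. With both genotypes averaged, 9 members rose from 3 to 5 DPP and none fell, beside 1.21% of all genes higher. These were Oasl2 (2.05 ± 0.43), Ifi44 (2.11 ± 0.51), Zbp1 (1.62 ± 0.31), Irf7 (1.61 ± 0.39), Rtp4 (1.48 ± 0.33), Parp9 (1.22 ± 0.24), Parp14 (1.07 ± 0.23), Dtx3l (0.94 ± 0.21) and Samd9l (0.92 ± 0.21), with adjusted p between 0.0258 and 0.0493. The count was 0 with only the groups compared in the fit and 2 with no filter on low values. No member was called by limma at the other steps, where 0.761% of genes were called from 1 to 2 DPP, 0% from 2 to 3 DPP and 0.0222% from 5 to 7 DPP. At an unadjusted p under 0.05 there were 3, 23 and 3 members in these steps, beside 1676, 1449 and 1548 of all 13539 genes. The lowest p from 2 to 3 DPP belonged to Ifit3 (2.34 ± 0.53), Ifit1 (1.67 ± 0.38) and Parp14 (0.91 ± 0.23), with adjusted p of 0.194 to 0.219. For the preceding step these were Parp14 (-0.63 ± 0.23), Zbp1 (0.81 ± 0.31) and Xaf1 (-1.03 ± 0.47), and for the last step Irgm1 (-0.77 ± 0.25), Ifit3 (-1.35 ± 0.53) and Igtp (-0.62 ± 0.29). Without WT replicate 2, 14 members rose from 2 to 3 DPP, among 66 of all 13539 genes that rose in that fit. Without WT replicate 1, calls also appeared from 5 to 7 DPP and, for Irf7, from 1 to 2 DPP, all of members that fell. In these fits each WT group is 1 library, and the spread comes from the Tnfr2-/- pairs. The median member differed by -0.24, 0.68, 0.90 and -0.37 in the 4 steps in order.

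For 35 members in WT replicate 2 and for 37 in each Tnfr2-/- series the highest of the 5 days was 5 DPP. In WT replicate 1 it was 7 DPP for 30 members and 3 DPP for 6. From 2 to 3 DPP, 40 of the 41 members were higher in WT replicate 1, with a median of 1.70, and 26 to 34 were higher in the other series, with medians of 0.20 to 0.46, and 48.2% to 51.3% of all genes were higher in each series. From 5 to 7 DPP 32 were higher in WT replicate 1 (median 0.59), and 37 to 39 were lower in each of the other series (medians -0.73 to -0.67), with 47.3% to 50.7% of all genes higher in each series. Of the leave-out counts that follow, only those without a WT series are set beside all genes. For the others, a change in the members alone cannot be told from a change over all genes. The 3-to-5 DPP count fell to 0 without any 1 of 6 libraries, namely WT replicate 2 at 3 or 5 DPP and either Tnfr2-/- series at 3 or 5 DPP. The count became 2 when the 5 DPP library of WT replicate 1, or any Tnfr2-/- library of 1, 2 or 7 DPP, was left out. It was 14 without either WT library of 7 DPP, 20 without WT replicate 1 (303 of all genes higher), 15 without WT replicate 2 (352 of all genes higher) and 0 without either Tnfr2-/- series.

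**Figure D4:**
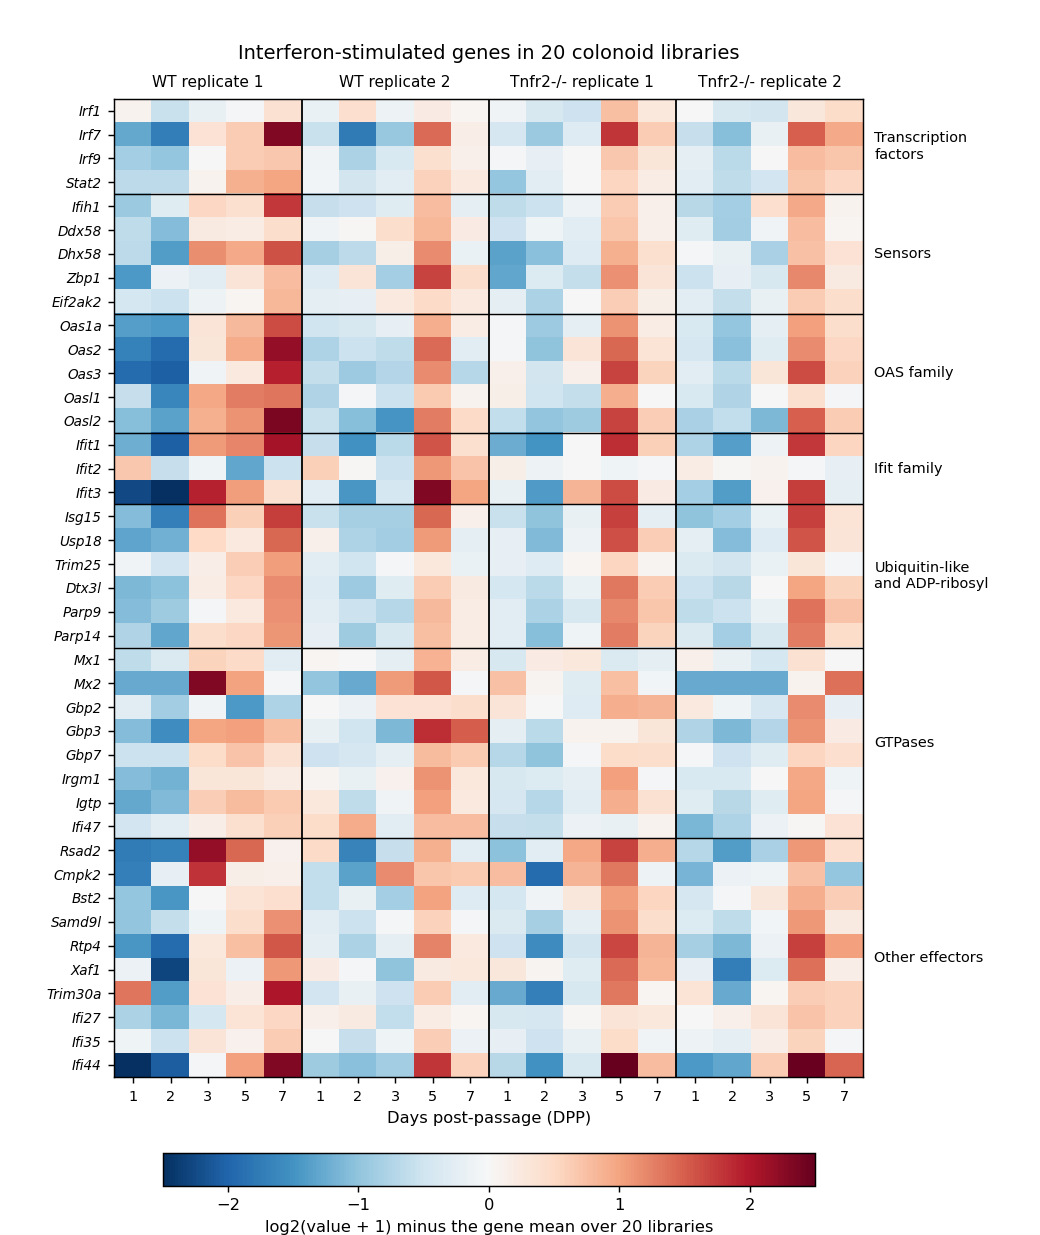
Heat map of the 41 members (rows, grouped by role) in 20 libraries (columns, by replicate series and days post-passage), coloured by log2(value + 1) minus the gene's mean over the libraries. Red columns at 5 DPP stand out in WT replicate 2 and both Tnfr2-/- series, and the 7 DPP column is the reddest of WT replicate 1.

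The members moved together across libraries. The median Pearson correlation between pairs of members was 0.72 over 20 libraries (820 pairs), and 0 between all pairs of genes tested. The libraries share replicate series and days, and the values are given as a description. Rtp4 followed the median of the other members most closely (r = 0.98), then Dtx3l, Ifit1 and Parp14 (each 0.97), and Ifit2 least (r = -0.07), with Gbp2 at 0.30 and Mx1 at 0.43.

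Between WT and Tnfr2-/- over all days, 2 of the 41 members passed, beside 7.60% of all genes tested. Ifi47, an immunity-related GTPase, was at 4.14 to 12.7 in WT (median 8.67) and 2.25 to 8.31 in Tnfr2-/- (median 5.403). Its mean was 8.37 ± 2.99 (SD, n = 10) in WT and 5.07 ± 1.82 in Tnfr2-/-, and the ranges overlapped. It was lower in Tnfr2-/- by a log2 difference of -0.62 ± 0.17 (adjusted p = 0.0364, limma). Bst2 was at 38.5 to 218 in WT (median 90.4) and 79.3 to 224 in Tnfr2-/- (median 132), with means of 101 ± 53.9 and 138 ± 49.6. Bst2 exceeded WT in Tnfr2-/- by 0.53 ± 0.15 on the log2 scale (adjusted p = 0.0413, limma). The median of the 41 members was -0.01, with 19 above 0 and 22 below.

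Neither call held in the fits below that allow for the replicate series. With the series as a correlated block, 0 members were called over all days (adjusted p = 0.0805 for Ifi47 and 0.0944 for Bst2), and with 1 value per series 0 members were called, with 4 at an unadjusted p under 0.05, beside 7 of all genes called and 1522 at that unadjusted p. Ifi47 passed in 11 and Bst2 in 6 of the 24 fits that left out a library or a series. Summed per Ensembl gene, which leaves out the other identifiers of the Ifi47 symbol, Bst2 alone passed.

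Late, no member passed between the genotypes, beside 6.45% of all genes, and 1 member had an unadjusted p under 0.05 (limma), as did 3094 of all 13539 genes. Early, no member passed, beside 1.20% of all genes, with 3 at an unadjusted p under 0.05 beside 1746 of all genes. The lowest p late belonged to Gbp2 (1.03 ± 0.38, adjusted p = 0.124), Ifi47 (-0.55 ± 0.27, adjusted p = 0.249) and Gbp3 (-0.86 ± 0.45, adjusted p = 0.286). The lowest early belonged to Ifi47 (-0.66 ± 0.22), Bst2 (0.61 ± 0.22) and Oas3 (0.91 ± 0.39), with adjusted p from 0.214 to 0.337. Without WT replicate 1, the late count was 3 (Bst2 and Oas3 higher, Ifit2 lower in Tnfr2-/-) and the early count 1 (Bst2), with 600 and 198 of all genes called. Without WT replicate 2, it was 7 late (Bst2, Gbp2 and Ifit2 higher, Oas1a, Oasl1, Oasl2 and Trim25 lower) and 2 early (Bst2 and Oas3), with 2186 and 720 of all genes called. Without the 5 DPP or the 7 DPP library of WT replicate 2, 1 member passed late (Gbp2 higher and Trim25 lower, respectively), beside 1462 and 718 of all genes, and without its 2 DPP library Bst2 passed early, beside 170 of all genes. Fibroblast marker sums ranged higher in late Tnfr2-/- than in late WT libraries, with overlap, as given above, and their part in these values was not tested.

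The difference between the late and the early genotype effect was called for no member, beside 0.148% of all genes, and no member had an unadjusted p under 0.05 (limma), beside 1583 of all genes. The lowest p belonged to Irf1 and Gbp3, given above, and to Gbp2 (0.92 ± 0.49, adjusted p = 0.499). No member was called at any single day, 2 libraries against 2. In day order, the share of all genes called was 0.0739%, 0.0960%, 0.155%, 1.65% and 0.820%, and 1, 1, 2, 2 and 0 members had an unadjusted p under 0.05 (limma), beside 819, 1006, 1176, 2172 and 1881 of all genes. At 1 DPP the lowest p belonged to Ifi47 (-0.85 ± 0.39), Oas3 (1.19 ± 0.68) and Oas1a (0.74 ± 0.42), and at 2 DPP to Ifi47 (-1.02 ± 0.39), Bst2 (0.75 ± 0.37) and Irf9 (0.44 ± 0.27). At 3 DPP it was Mx2 (-2.47 ± 0.71), Dhx58 (-1.23 ± 0.55) and Bst2 (0.72 ± 0.37) that came first. These were Gbp2 (1.57 ± 0.53), Parp9 (0.75 ± 0.34) and Xaf1 (1.36 ± 0.67) at 5 DPP, and Trim25 (-0.42 ± 0.28), Isg15 (-0.88 ± 0.61) and Ifih1 (-0.66 ± 0.47) at 7 DPP.

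The sign of the member median changed between days. From 1 to 7 DPP it was 0.15, 0.19, -0.16, 0.25 and -0.26, with 31, 30, 12, 32 and 9 of the 41 members above 0. Without WT replicate 1 the medians were -0.15, -0.10, 0.24, 0.17 and 0.18, so the sign was opposite at every day but 5 DPP. Without WT replicate 2 they were 0.55, 0.53, -0.42, 0.58 and -0.58, and 11 members were then called lower in Tnfr2-/- at 7 DPP and 9 higher at 5 DPP, among 411 of all genes lower and 702 higher on those days. In that fit WT is 1 library at each day and is assumed to vary like the Tnfr2-/- pairs, which give all of the spread. Without WT replicate 1, 1 member was called at 3 DPP and 1 at 7 DPP, beside 44 and 147 of all 13539 genes. Without WT replicate 2, 1, 1 and 2 members were called at 1, 2 and 3 DPP, beside 65, 91 and 238 of all genes. Leaving out only the WT replicate 2 library of that day gave 1 at 5 DPP (Gbp2) and 2 at 7 DPP (Ifih1 and Trim25), beside 471 and 125 of all genes.

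**Figure D5:**
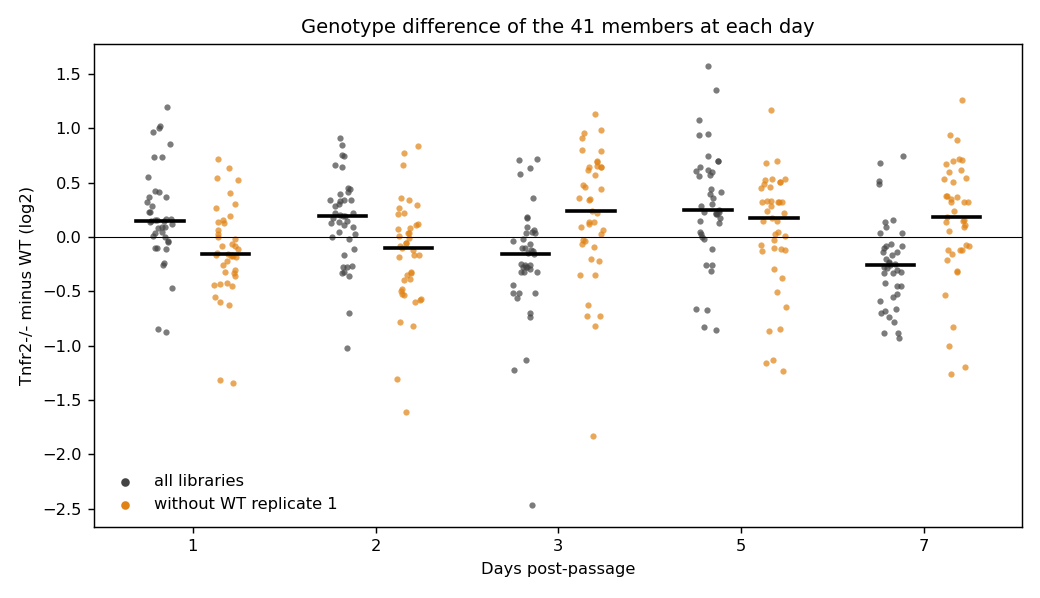
Tnfr2-/- minus WT difference (log2 scale, y axis) of each of the 41 members at each day post-passage, with all libraries (grey) and without WT replicate 1 (orange), and black bars at the medians. Grey and orange medians lie on opposite sides of 0 at 1, 2, 3 and 7 DPP.

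Between the replicate series of a genotype, no member passed over the 5 days in WT, beside 6.26% of all genes, or in Tnfr2-/-, beside 0.0739%. At an unadjusted p under 0.05 there were 5 members in WT and 0 in Tnfr2-/- (limma), beside 2875 and 648 of all 13539 genes. The lowest p in WT belonged to Irgm1 (-0.57 ± 0.18 for replicate 1 minus replicate 2, adjusted p = 0.074), which was called without the 3 DPP or the 7 DPP library of replicate 1. Gbp2 (-0.89 ± 0.32) and Trim25 (0.39 ± 0.14) followed. In Tnfr2-/- the lowest belonged to Ifi27 (-0.39 ± 0.21), Xaf1 (0.61 ± 0.41) and Rsad2 (0.74 ± 0.50).

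Upstream of the members, the interferons themselves were at or near 0. Of 21 interferon genes, 17 were listed at 0 in every library, and the rest (Ifnb1, Ifna16, Ifne and Ifnz) had means under 1. Their sum did not exceed 2.40 in any library. All 6 receptor chains were expressed, from Ifnlr1 (mean 8.01) to Ifngr1 (mean 155).

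Of the 31 receptors, kinases, regulatory factors, sensors and inhibitors outside the member list that were tested, 10 rose late in WT, beside 11.6% of all genes, and 8 in Tnfr2-/-, beside 10.4%, and none fell. On 1 value per series none passed in either genotype, with 10 and 9 at an unadjusted p under 0.05 (limma), beside 4066 and 3997 of all genes. The WT count was 4 with only the groups compared or without either Tnfr2-/- series (611 to 614 of all genes higher), and 2 without WT replicate 1 (699 higher), and the Tnfr2-/- count was 0 without either of its own series (2 and 3 of all genes called). Among them, the receptor chain Ifngr2 and the kinases Jak1 and Jak2 rose in both, with Ifngr2 up by 1.13 in WT and 0.85 in Tnfr2-/-. Il10rb, Tyk2, Irf2, Irf2bp2 and Ptpn6 passed in WT, and Ifngr1, Tmem173 (STING) and Socs3 in Tnfr2-/-.

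Between genotypes, 2 of the 31 passed over all days and late, beside 7.60% and 6.45% of all genes, which is near the background. The kinase Jak2 was higher in Tnfr2-/- by 0.34 ± 0.10 over all days and 0.61 ± 0.15 late. Socs3, an inhibitor of JAK signalling, exceeded WT by 1.02 ± 0.19 across the 5 days (adjusted p = 0.00373, limma) and 1.41 ± 0.29 late. Its means were 20.5 ± 5.80 in WT and 44.1 ± 16.8 in Tnfr2-/- (SD, n = 10). On 1 value per series neither passed. With the series as a correlated block, the adjusted p over all days was 0.102 for Jak2 and 0.0118 for Socs3 (limma), and late it was 0.0413 and 0.0171. Of the 24 fits that left out a library or a series, Jak2 passed in 7 over all days and 14 late, and Socs3 in 22 and 18. The late count of the 31 was 0 with only the groups compared, without WT replicate 1 at 5 DPP, without Tnfr2-/- replicate 2 at 5 or 7 DPP and without either Tnfr2-/- series, where 19 to 351 of all genes were called. It was 1 without WT replicate 1 or without Tnfr2-/- replicate 1 at 5 or 7 DPP, beside at most 600 of all genes. It was 1 higher and 3 lower without WT replicate 2 at 5 DPP, and 2 higher and 3 lower without WT replicate 2, beside 1462 and 2186 of all genes called. Over all days the leave-outs gave 0 to 2 higher and 0 to 1 lower, with 0 without WT replicate 1 or without Tnfr2-/- replicate 2, where 487 and 146 of all genes were called. Late fibroblast marker sums were 1242 to 4051 in WT and 3728 to 8594 in Tnfr2-/-, and their relation to these genes was not tested.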

How the data were processed

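Per the labels and the study's methods, the authors built stranded mRNA libraries from total RNA, quantified reads per transcript with kallisto on mm10 transcripts and compared groups with sleuth. The deposited signal is TPM per transcript divided by a size factor per library, so counts cannot be recovered. The study gives an approximate read number per sample, but not the depth of each library. Library sums ran from 900655 to 1111080. The authors' own test columns were not used.

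Repeated rows were dropped and values summed per symbol. Differences were tested with limma 3.58.1 (mean-variance trend, pseudocount 1, 13539 genes with a mean of at least 1, Benjamini-Hochberg over all of them, called under 0.05) on day plus genotype, on 10 group means, or on day plus replicate series. The procedure was run on simulated data with independent libraries, which cannot show an effect of the replicate series. The labels give replicate numbers and the code M1 or M2, and a series was treated as a block within its genotype on that basis alone. A further fit of the genotype comparisons used the replicate number as a block across both genotypes. Deviations of libraries of a series correlated at 0.0997 to 0.307 in WT and -0.05 to 0.08 in Tnfr2-/-. Between WT and Tnfr2-/- libraries of the same replicate number the range was -0.05 to 0.09, much like that within Tnfr2-/-. Named members were those called (at most 12 by size) or, where none passed, the 3 of lowest p. Values per library (lowest, median and highest for groups over 5 libraries) were given for the 6 of highest mean, the 6 of largest late rise in WT and those called between genotypes. The members and the other lists were chosen with earlier results of these data known. Alternatives covered pseudocount, filter, scaling, gene definition, series blocks, weights and left-out libraries or series. Leaving out series for the day comparisons was added after seeing the data. Some of the pathway genes counted are not reported here by name.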

Additional observations from a re-analysis of the deposited data

Results flagged for a closer look

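In 164 sets of early or late libraries of 1 genotype (41 members, 6 early or 4 late libraries each), 13 held a library farther from the rest than Dixon's limit allows. That limit is set for about 5% by chance among like libraries. The sets pool different days and the members move together, so this rate does not apply here and the flags are a description. The 3 DPP library of WT replicate 1 was the high one in 9 of them among the early WT libraries, with Isg15 at 74.4, Oasl2 at 48.2, Ifit3 at 36.9, Rsad2 at 28.7, Ifih1 at 27.9, Ifit1 at 17.0, Mx2 at 10.9, Gbp3 at 8.05 and Gbp7 at 2.96. Irgm1 was high at 79.0 in WT replicate 2 at 5 DPP among the late WT libraries. In Tnfr2-/-, Rsad2 was high at 11.6 in replicate 1 and Ifi44 at 14.3 in replicate 2, both at 3 DPP among the early libraries, and Gbp3 was high at 8.93 in replicate 2 at 5 DPP among the late ones. No member's late minus early difference passed the test between genotypes.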

How the results depend on the processing

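With 2 replicate series per genotype, the counts rest on how the spread is estimated. Of the member counts, the number rising late was 12 in WT with only the groups compared in the fit and 0 in WT and 0 in Tnfr2-/- on series means, where no gene passed. The count from 3 to 5 DPP was 0 with only the groups compared and 2 with no filter on low values. Over all days the genotype count was 0 on series means, with no filter and with the replicate block of the series as a correlated block, and 1 with day as a linear term, with libraries rescaled to equal sums or summed per Ensembl gene. Between the WT series 1 member passed when summed per Ensembl gene. The replicate block fits changed no other count by over 1.5 times. The fits with the series as a correlated or a fixed block gave 30 and 31 late in WT, 27 and 28 in Tnfr2-/- and 12 and 11 from 3 to 5 DPP. The fit with replicate number as a block covered the genotype comparisons only. Leaving out a library or a series gave 11 to 31 late in WT, 0 to 37 in Tnfr2-/-, 0 to 20 from 3 to 5 DPP, 0 to 14 from 2 to 3 DPP, 0 to 6 from 5 to 7 DPP and 0 to 1 from 1 to 2 DPP. For the genotype counts it gave 0 to 3 over all days, 0 to 7 late, 0 to 2 early, 0 to 1 at 1 DPP and at 2 DPP, 0 to 2 at 3 DPP, 0 to 9 at 5 DPP, 0 to 11 at 7 DPP, and 0 to 1 between the WT series. At 7 DPP the genotype difference of Trim25 ran from -1.03 to 0.18 and that of Ifih1 from -1.65 to 0.32, above 0 without WT replicate 1. The cause of these changes was not tested.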
